A study of Mus musculus with 30 samples.

Results

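The genes described here were 8 genes of macrophages and other myeloid cells, Cd68, Lyz2, Csf1r, Laptm5, Lilr4b, Tyrobp, Fcer1g and Fcgr3, followed in the mouse olfactory epithelium after removal of both olfactory bulbs. They were chosen by name, on probe sets that the array annotation pairs with exactly 1 gene. This gave 13 probe sets of 10833 such probe sets in all, and 8 genes of 8251. A filter on low signals (above 572, the median of all signals, on at least 3 arrays) passed 7 of the 13 probe sets, covering 6 of the 8 genes. Fcer1g and Fcgr3 did not pass on any probe set.

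Bulbectomy cuts the axons of the olfactory sensory neurons and removes their target. The study hybridised total RNA of microdissected olfactory epithelium, a bulk tissue, from 6-week-old mice to 30 oligonucleotide arrays. The labels gave each mouse as wild type or as an SR-A mutant; SR-A, the product of Msr1, is a scavenger receptor of macrophages that binds modified lipoproteins. Each genotype had 3 arrays at 0, 2, 8, 16 and 48 h, which made 10 groups. Bulbectomy was common to the series, whereas whether the 0 h mice had been operated on, the mutant allele, and whether arrays of a group came from separate mice are not stated in the sources used here. The p-values therefore refer only to the array-to-array spread within groups, which may be technical. In bulk tissue, fewer cells of a type and less RNA per cell cannot be told apart.

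Macrophages are phagocytes that live in most tissues and are joined after injury by monocytes from the blood. In the olfactory epithelium they are known to clear dying sensory neurons. They depend on the growth factor receptor Csf1r, degrade what they engulf in lysosomes (Cd68, Lyz2, Laptm5), and sense immune complexes and other ligands through receptors that signal by the adaptors Tyrobp and Fcer1g, held in check by inhibitory receptors.

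The values were signals from the MAS5 algorithm, scaled so that the trimmed mean lay at 1500.7 to 1500.9 on every array. The 3 SR-A mutant 2 h arrays stood apart: control probe sets for the 3′ and 5′ ends of Gapdh differed by 5.59, 0.15 and 1.27 on the log2 scale, against -0.31 to -0.13 on the other 27 arrays. Omp, the marker of mature sensory neurons, read 128, 16964 and 3390 on these 3 arrays and 16300 to 40155 on the other 27. They share 1 estimate of the spread with the other groups, and calls that changed in a fit without them are given beside the main values. Msr1 had a mean signal of 442 ± 82.2 (SD, n = 15) on arrays labelled mutant and 155 ± 63.0 (SD, n = 15) on arrays labelled wild type, on its brighter probe set. The sources used here do not place its probes relative to the mutation, so Msr1 gives no check of the labels, and every genotype below is the genotype as labelled. Of the 3 defining markers of macrophages, Mrc1 passed the filter (280 to 666 over the 30 arrays), whereas Adgre1 (42 to 330) and Aif1 (25 to 350) did not, with 14 and 18 arrays at or below the floor of 113.7 under which signals were treated as equal.

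At 48 h after bulbectomy the lysosomal and receptor genes Cd68, Lyz2, Tyrobp and Lilr4b were higher than at 0 h on the arrays labelled wild type, by 1.75-fold to 4.69-fold. Of these 4, Cd68 alone passed the same test on the arrays labelled SR-A mutant. Lilr4b was the member whose change at 48 h differed between the genotypes by test. Over the 7 tested probe sets the median of this difference, mutant minus wild type, was -0.62 (log2). The differences of Lyz2 and Tyrobp had the same sign and missed the threshold. Csf1r, the growth factor receptor of the lineage, stood at -0.01 ± 0.15 (log2 difference ± SE) at 48 h in both genotypes. The plot of signals on each array shows these courses.

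**Figure D1:**
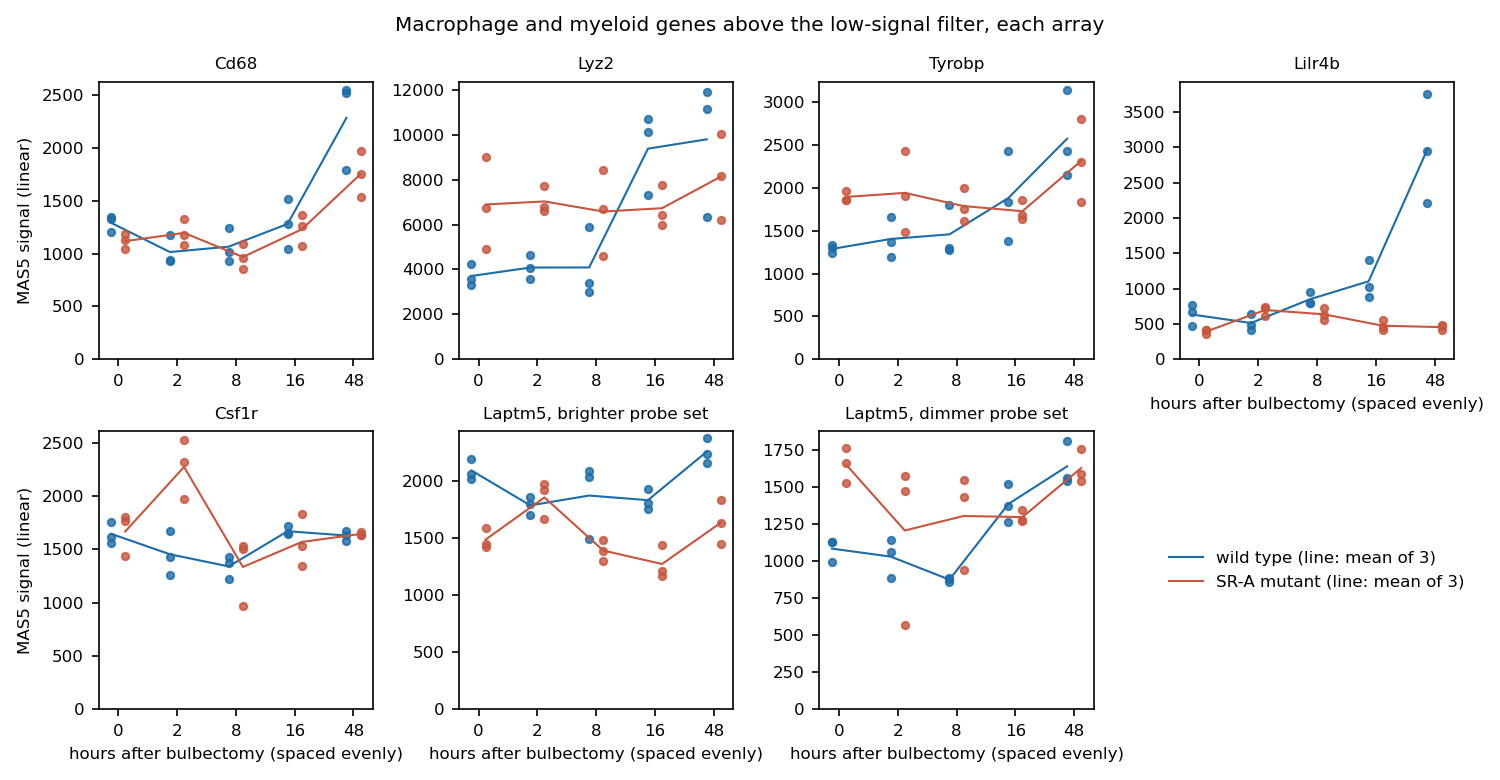
MAS5 signal (linear scale, from 0) of the 7 probe sets above the low-signal filter against time after bulbectomy, with times spaced evenly; points are single arrays and lines join the means of the 3 arrays of each group. Lilr4b reached 2211 to 3759 on the wild-type arrays at 48 h and 414 to 478 on the SR-A mutant arrays, whereas the 2 probe sets of Laptm5 had the genotypes in opposite order at 0 h.

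Lilr4b encodes a member of the leukocyte immunoglobulin-like receptor family found on myeloid and mast cells. On the wild-type arrays its signal was 761, 464 and 672 at 0 h, 418, 484 and 636 at 2 h, and 953, 796 and 797 at 8 h. It was 1401, 1025 and 883 at 16 h and 2949, 2211 and 3759 at 48 h. Each 16 h array thus lay above each 0 h array, and each 48 h array above every array of every other group. Of all tested probe sets in wild type, 17.6% had 16 h and 18.3% had 48 h above 0 h without overlap. The log2 change from 0 h was 0.80 ± 0.20 at 16 h (SE; limma, adjusted p = 0.0188) and 2.23 ± 0.20 at 48 h (limma, adjusted p = 7.84e-08), and 1.42 ± 0.20 of this came between 16 and 48 h (limma, adjusted p = 1.74e-04). The 16 h call was lost without wild-type 0 h replicate 2 (0.60, limma adjusted p = 0.109) or 16 h replicate 1 (0.62, limma adjusted p = 0.119). In a fit of only the groups compared, the limma adjusted p was 0.0658 for 16 h against 0 h and 0.0574 for 48 h against 16 h.

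On the SR-A mutant arrays the Lilr4b signal was 409, 413 and 358 at 0 h, 741, 730 and 618 at 2 h, and 550, 731 and 626 at 8 h. It was 559, 411 and 452 at 16 h and 414, 478 and 472 at 48 h. The 3 highest arrays came from 2 and 8 h, and the 48 h arrays lay just above those of 0 h. In the mutant 13.9% of all tested probe sets had 48 h above 0 h without overlap. The change was 0.82 ± 0.20 at 2 h (SE; limma, adjusted p = 0.00680) and 0.21 ± 0.20 at 48 h (limma, adjusted p = 0.575). With replicate 2, whose Gapdh difference was the smallest of its group, as the only 2 h array, the 2 h change was 0.90 ± 0.29 (limma, adjusted p = 0.0853), and in a fit of only the groups compared the adjusted p was 0.0749.

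Lilr4b was lower on the mutant arrays at 3 of the 5 times by test. SR-A mutant minus wild type was -0.66 ± 0.20 (SE) at 0 h, -1.20 ± 0.20 at 16 h and -2.68 ± 0.20 at 48 h, with limma adjusted p of 0.0258, 0.00126 and 2.96e-09. At 48 h this was a 6.40-fold lower signal on the mutant arrays, with no overlap between the groups. The genotypes did not overlap at 48 h, in either direction, for 30.4% of all tested probe sets. The change from 0 h was smaller in the mutant at 48 h by 2.02 ± 0.28 (log2, SE; limma, adjusted p = 2.63e-04) and larger at 2 h by 1.12 ± 0.28 (adjusted p = 0.0152), the 2 h value being 1.19 ± 0.36 (adjusted p = 0.0485) with replicate 2 as the only mutant 2 h array. The test of any difference in time course gave F = 33.4 (limma, adjusted p = 2.43e-06). The 0 h difference was lost without wild-type replicate 1 (-0.51, limma adjusted p = 0.133) or 3 (-0.60, 0.0914) or mutant replicate 2 (-0.70, 0.0546) or 3 (-0.59, 0.0907), and under quantile normalization (-0.53, 0.0716).

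A second probe set was annotated to both Lilr4b and its neighbour on chromosome 10, Lilrb4a (the next gene in the GRCm38.p6 annotation), which encodes an inhibitory receptor, and cannot be assigned to either. Its signal on wild-type arrays was 188, 173 and 186 at 0 h and 894, 581 and 1034 at 48 h. On mutant arrays it was 147, 147 and 118 at 0 h and 220, 246 and 292 at 48 h. The 48 h arrays lay above the 0 h arrays in both genotypes. So did those of 18.3% of all tested probe sets in wild type and 13.9% in the mutant. The 3 wild-type 48 h arrays were the only arrays of the shared probe set above 572. It thus passed the low-signal filter only through the group where it was highest, and no test of it is given. Its log2 change at 48 h was 2.16 ± 0.24 (SE) in wild type and 0.88 ± 0.24 in the mutant. The mutant change was smaller by 1.28 ± 0.34. Its log2 signals and those of the Lilr4b probe set correlated at r = 0.88 over the 27 arrays outside the SR-A mutant 2 h group, arrays that share their groups.

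Cd68 encodes a glycoprotein of late endosomes and lysosomes that is widely used to stain macrophages. On wild-type arrays its brighter probe set read 1345, 1329 and 1201 at 0 h and 2545, 1791 and 2517 at 48 h. On mutant arrays it read 1041, 1125 and 1187 at 0 h and 1536, 1969 and 1754 at 48 h. In both genotypes all 48 h arrays lay above all 0 h arrays, and the 2 genotypes overlapped at 48 h. That order of times without overlap held for 18.3% of all tested probe sets in wild type and 13.9% in the mutant. The change was 0.81 ± 0.16 (log2, SE; limma, adjusted p = 9.30e-04) in wild type and 0.64 ± 0.16 (adjusted p = 0.0106) in the mutant, and the mutant change differed from the wild-type change by -0.16 ± 0.22 (adjusted p = 0.764). Without mutant 48 h replicate 2 the mutant change was 0.56 (limma, adjusted p = 0.0535).

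The Cd68 change in wild type fell in the last interval: 48 h minus 16 h was 0.83 ± 0.16 (log2, SE; limma, adjusted p = 0.00306; 0.0896 in a fit of only these groups). From 2 to 16 h the wild-type arrays read 933 to 1515 and the mutant arrays 858 to 1363. Between 16 and 48 h the mutant difference of 0.51 ± 0.16 lay at the threshold (limma, adjusted p = 0.0501). The dimmer Cd68 probe set read 4 to 66 on the 30 arrays, all at or below the floor, and gives no measure of the gene.

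Lyz2 encodes lysozyme M, a bacterial cell wall hydrolase made by macrophages and granulocytes. Its brighter probe set read 4248, 3588 and 3292 at 0 h, 5882, 2983 and 3405 at 8 h, 10122, 7323 and 10703 at 16 h and 6338, 11132 and 11929 at 48 h on the wild-type arrays. All 16 h and 48 h arrays lay above all arrays of the earlier times. In wild type 17.6% of all tested probe sets at 16 h and 18.3% at 48 h lay above 0 h without overlap. The change from 0 h was 1.33 ± 0.27 at 16 h and 1.36 ± 0.27 at 48 h (log2, SE; limma adjusted p of 0.00558 and 0.00122). Lyz2 thus passed the test at 16 h, where Cd68 stood at -0.03 ± 0.16 (adjusted p = 0.945). The step from 8 to 16 h was 1.24 ± 0.27 (limma, adjusted p = 0.0262). That step was lost without wild-type 8 h replicate 2 (1.05, adjusted p = 0.0826) or 3 (1.14, 0.107), without 16 h replicate 1 (1.18, 0.104) or 3 (1.14, 0.123), with no filter on low signals (0.0571) and in a fit of only the 2 groups (0.157).

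On the mutant arrays Lyz2 read 6758, 4918 and 9011 at 0 h and 6206, 8160 and 10052 at 48 h. These groups overlapped, and the mutant 0 h arrays lay above all wild-type 0 h arrays. This genotype order without overlap at 0 h held for 17.8% of all tested probe sets. The mutant change at 48 h was 0.26 ± 0.27 (log2, SE; limma, adjusted p = 0.622), and the genotype difference at 0 h was 0.86 ± 0.27 (adjusted p = 0.0298). The difference between the 2 changes, -1.10 ± 0.38 at 48 h, missed the threshold (limma, adjusted p = 0.123), as did -1.33 ± 0.38 at 16 h (adjusted p = 0.106), while the test of the whole time course passed it (F = 5.48, adjusted p = 0.0291). That test was lost without wild-type 16 h replicate 1 (F = 4.58, limma adjusted p = 0.0534) or 3 (4.49, 0.0590) or mutant 16 h replicate 2 (4.54, 0.0529) or 3 (4.70, 0.0502), with no filter (4.98, 0.0627) and over the 3 differences without the SR-A mutant 2 h arrays (5.74, 0.0623). The 0 h difference was lost without wild-type replicate 2 (0.84, limma adjusted p = 0.0708) or 3 (0.78, 0.103) or mutant replicate 1 (0.85, 0.0633) or 3 (0.64, 0.149), and with no filter (0.0571).

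A probe set annotated to both Lyz1 and Lyz2, near copies that cross-hybridisation could mix, followed the Lyz2 probe set at r = 0.98 over the 27 arrays and changed by 1.28 ± 0.29 at 48 h in wild type (log2, SE; limma, adjusted p = 0.00396). Because of this copy the Lyz2 values are uncertain as to gene. The dimmer Lyz2 probe set read 10 to 136, with 28 of 30 arrays at or below the floor.

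Tyrobp (DAP12) is the adaptor with an immunoreceptor tyrosine-based activation motif (ITAM) through which several myeloid receptors signal. On wild-type arrays it read 1295, 1238 and 1328 at 0 h and 3144, 2433 and 2146 at 48 h, with no overlap. This order without overlap held for 18.3% of all tested probe sets. On mutant arrays Tyrobp read 1960, 1863 and 1860 at 0 h and 2806, 2305 and 1837 at 48 h, with replicate 3 of 48 h below all 0 h arrays. The change was 0.98 ± 0.20 (log2, SE; limma, adjusted p = 0.00138) in wild type and 0.27 ± 0.20 (adjusted p = 0.435) in the mutant, and their difference of -0.71 ± 0.28 missed the threshold (adjusted p = 0.176). As for Lyz2, the mutant arrays were the higher ones at 0 h, by 0.56 ± 0.20 (limma, adjusted p = 0.0517), or adjusted p = 0.0341 in the fit without the SR-A mutant 2 h arrays.

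Csf1r encodes the receptor for the growth factors Csf1 and Il34 on which macrophages depend. On wild-type arrays its brighter probe set read 1759, 1619 and 1565 at 0 h and 1582, 1634 and 1677 at 48 h. On mutant arrays it read 1810, 1436 and 1764 at 0 h, 2324, 2532 and 1972 at 2 h, 968, 1537 and 1502 at 8 h, and 1669, 1635 and 1634 at 48 h. The mutant 2 h arrays were thus the highest of all 30, and the 0 h and 48 h arrays of both genotypes overlapped.

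For Csf1r the mutant 2 h arrays exceeded their 0 h arrays by 0.45 ± 0.15 (log2, SE; limma, adjusted p = 0.0373) and the wild-type 2 h arrays by 0.65 ± 0.15 (adjusted p = 0.00564), and the 8 h arrays were lower than the 2 h arrays by 0.79 ± 0.15, a log2 difference of -0.79 (adjusted p = 4.79e-04). With replicate 2 as the only mutant 2 h array these were 0.61 ± 0.20 (limma, adjusted p = 0.0999), 0.81 ± 0.20 (adjusted p = 0.0274) and -0.95 ± 0.20 (adjusted p = 0.00581). The array of this 2 h group with the highest Csf1r signal, replicate 2 at 2532, had the smallest Gapdh 3′ to 5′ difference, 0.15. The part of that difference in the 2 h values was not tested. The 0 to 2 h call was also lost without mutant 0 h replicate 2 (0.34, limma adjusted p = 0.170) or 3 (0.49, 0.0558), without 2 h replicate 1 (0.43, 0.122) or 2 (0.37, 0.110), with no filter (0.0553) and in a fit of only the groups compared (0.202; 0.0802 for 2 to 8 h). The dimmer Csf1r probe set read 126 to 381 on the 30 arrays and did not pass the filter. Its 2 h arrays lay above its 0 h arrays in both genotypes. They read 298 to 335 against 127 to 206 in wild type, and 295 to 381 against 164 to 271 in the mutant. Of all tested probe sets, 16.0% in wild type and 16.5% in the mutant had this order without overlap. A 2 h rise was thus not particular to the mutant on this probe set.

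Laptm5 encodes a lysosomal transmembrane protein of blood-derived cells that lowers receptor levels at the cell surface, and its 2 probe sets disagreed. The brighter probe set read 2192, 2016 and 2062 on wild-type and 1420, 1446 and 1590 on mutant arrays at 0 h, and 2157, 2236 and 2373 against 1444, 1628 and 1829 at 48 h. At both times all wild-type arrays lay above all mutant arrays, where 43.2% and 30.4% of all tested probe sets had genotypes that did not overlap. The dimmer probe set read 1132, 1128 and 996 on wild-type and 1769, 1530 and 1664 on mutant arrays at 0 h, the opposite order with no overlap. At 48 h the dimmer probe set read 1546, 1816 and 1563 against 1588, 1758 and 1545, and the genotypes overlapped.

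On the brighter Laptm5 probe set, mutant minus wild type was -0.49 ± 0.12 (log2, SE) at 0 h, -0.53 ± 0.12 at 16 h and -0.47 ± 0.12 at 48 h (limma adjusted p of 0.00602, 0.00736 and 0.00707), with 0.05 ± 0.12 at 2 h. On the dimmer one it was 0.61 ± 0.24 at 0 h and -0.01 ± 0.24 at 48 h (limma adjusted p of 0.0721 and 0.987). The dimmer probe set had a reading of 572 on SR-A mutant 2 h replicate 1, against 1577 and 1474 on the other arrays of that group. Without the SR-A mutant 2 h arrays its standard error fell from 0.24 to 0.14, the 0 h difference had an adjusted p of 0.00377, and its wild-type change at 48 h, 0.60 in both fits, had an adjusted p of 0.00371 instead of 0.0904 (limma). No direction of Laptm5 between the genotypes is therefore given for the gene. On the brighter probe set the change from 0 to 2 h was larger in the mutant by 0.55 ± 0.16 (limma, adjusted p = 0.0354), a call lost when any of 9 of the 12 arrays was left out (0.50 to 0.57, adjusted p = 0.0517 to 0.0817) and with replicate 2 as the only mutant 2 h array (0.64 ± 0.20, adjusted p = 0.0577). The 2 to 8 h difference of -0.42 ± 0.12 in the mutant (adjusted p = 0.0116) was lost without 8 h replicate 2 (-0.37, limma adjusted p = 0.0555), with replicate 2 as the only 2 h array (-0.51 ± 0.16, 0.0618) and in a fit of only these groups (0.101).

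Fcer1g encodes the Fc receptor gamma chain, an ITAM adaptor, and Fcgr3 a low-affinity receptor for IgG that needs it. The brighter Fcer1g probe set read 16 to 106, with 30 of 30 arrays at or below the floor. The dimmer one read 13 to 157 with 28 of 30, and the 2 arrays above the floor were wild-type 48 h arrays (73, 129 and 157 in that group; 35, 66 and 38 on the mutant 48 h arrays). Fcgr3 read 56 to 280, with 10 of 30 arrays at or below the floor. It was 193, 200 and 199 at 0 h and 180, 110 and 148 at 48 h on wild-type arrays, and 227, 188 and 77 against 95, 193 and 63 on mutant arrays. No fold change is given for these dim probe sets.

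**Figure D2:**
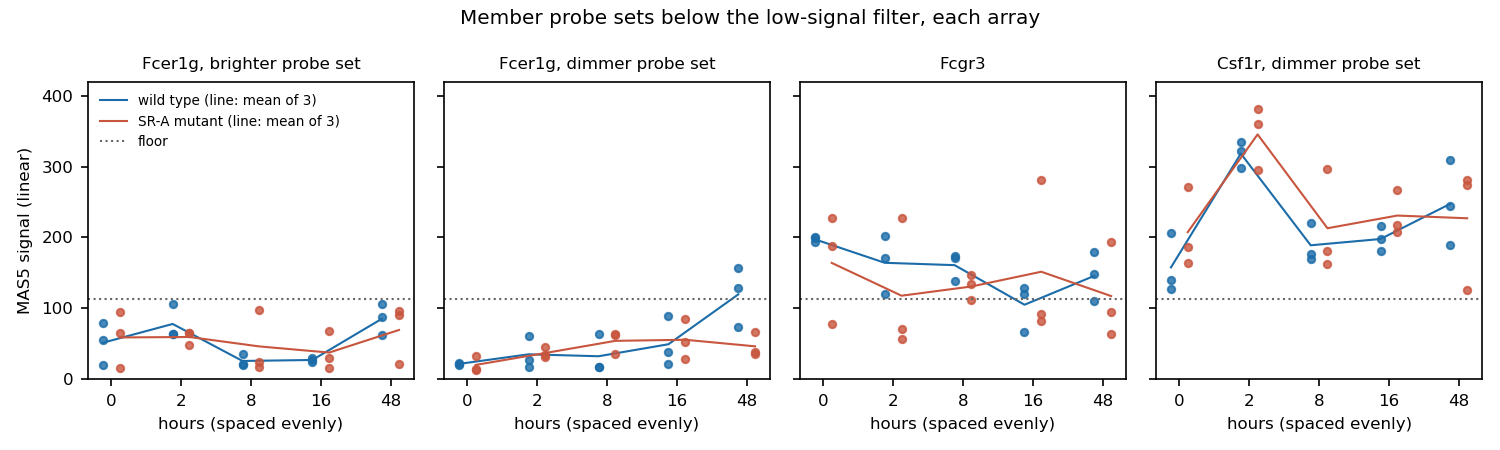
MAS5 signal (linear scale) against time after bulbectomy for 4 of the 6 member probe sets below the low-signal filter, 1 point an array and lines joining group means of 3; the dotted line is the floor of 113.7. Fcer1g lay at or below the floor on 30 and 28 of 30 arrays on its 2 probe sets, and Fcgr3 on 10 of 30.

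Counted over the 7 tested probe sets, members passed the test in wild type at 2, 8, 16 and 48 h in numbers of 0, 0, 2 and 4, all higher. Of all 6968 probe sets tested, 0.574%, 0.201%, 6.53% and 15.0% passed in either direction, with 3.49% higher at 16 h and 7.88% higher and 7.08% lower at 48 h. The median log2 change of the 7 probe sets at 48 h was 0.81, against -0.02 over all tested. The 2 probe sets past the test at 16 h were Lyz2 and Lilr4b, and Cd68 and Tyrobp joined them at 48 h. In the fit without the SR-A mutant 2 h arrays 5 passed at 48 h, with the dimmer Laptm5 probe set as the fifth.

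In the mutant 2, 0, 0 and 1 of the 7 passed at 2, 8, 16 and 48 h, where 17.7%, 1.91%, 3.65% and 9.47% of all probe sets did (7.38% higher at 2 h, and 4.49% higher and 4.98% lower at 48 h). The 2 at 2 h were Lilr4b and Csf1r, and the 1 at 48 h was Cd68. The median log2 change at 48 h was 0.21 over the 7 probe sets and 0.02 over all. The plot of changes from 0 h sets both genotypes side by side.

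**Figure D3:**
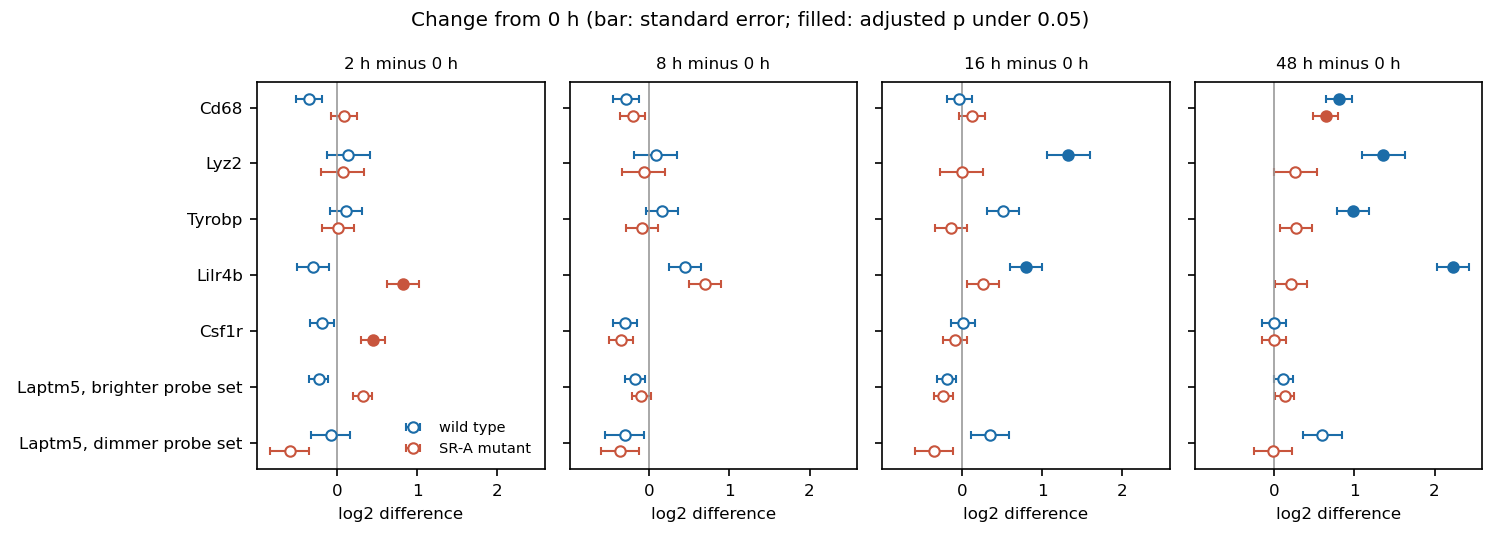
Log2 difference from 0 h (x axis) of each tested member probe set at 2, 8, 16 and 48 h; bars are standard errors from the limma fit and filled points have an adjusted p under 0.05. At 48 h Cd68, Lyz2, Tyrobp and Lilr4b are filled in wild type and Cd68 in the SR-A mutant.

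Over successive intervals, 0, 1 and 2 of the 7 passed in wild type from 2 to 8, 8 to 16 and 16 to 48 h, with 1.08%, 1.23% and 3.65% of all probe sets. In the mutant 2, 0 and 0 passed, with 25.2%, 1.89% and 6.10%. Lyz2 moved in wild type from 8 to 16 h, and Cd68 and Lilr4b from 16 to 48 h.

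Between genotypes, 3 of the 7 differed at 0 h (Lyz2 higher in the mutant, Lilr4b and the brighter Laptm5 probe set lower), where 18.3% of all probe sets did, 7.62% higher and 10.7% lower. At 2, 8, 16 and 48 h 1, 0, 2 and 2 differed, with 9.03%, 2.94%, 8.42% and 16.3% of all. Averaged over the 5 times 3 differed, with 35.7% of all: Lilr4b by -0.90 ± 0.09 (log2, SE; limma, adjusted p = 2.61e-07), the brighter Laptm5 probe set by -0.37 ± 0.05 (adjusted p = 1.27e-05) and Lyz2 by 0.33 ± 0.12 (adjusted p = 0.0365). Over the 4 times other than 2 h these were -1.24 ± 0.10 (limma, adjusted p = 8.49e-09), -0.48 ± 0.06 (adjusted p = 1.50e-06) and 0.21 ± 0.13 (adjusted p = 0.222), and 37.6% of all probe sets passed. The Lyz2 average also lost its call when any of 13 of the 30 arrays was left out (0.27 to 0.33, limma adjusted p = 0.050 to 0.0678).

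The change from 0 h differed between genotypes for 2, 0, 0 and 1 of the 7 probe sets at 2, 8, 16 and 48 h, with 10.6%, 0%, 0.115% and 2.86% of all. The median difference at 48 h was -0.62 over the 7 and 0.03 over all. The time course as a whole differed for 2 of 7, Lilr4b and Lyz2, with 14.7% of all.

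Because 4 members rose in the same wild-type arrays, their promoters were searched for the core of the binding site of PU.1 (Spi1), the transcription factor on which macrophage genes are known to depend. RefSeq promoter sequences (250 bases before to 50 after each start) matched 6 of the 8 members: Cd68, Lyz2, Laptm5, Lilr4b, Fcer1g and Fcgr3. Tyrobp and Csf1r were not matched. The motif GAGGAA, sought on both strands (TTCCTC on the other), stood in 3 of these 6, Cd68, Laptm5 and Fcgr3, and in 28.3% of all 32851 promoters of this length. The longer GAGGAAG, which contains it, stood in Laptm5 and Fcgr3 and in 13.6% of all. The shorter GGAA, which GAGGAA contains, stood in all 6 and in 96.0% of all. The promoters of the 3 matched members that passed the test at 48 h in wild type, and of Laptm5, whose probe sets disagreed, are shown 5′ to 3′ on the strand of the gene, with GAGGAA or TTCCTC in capitals.
Cd68 (GRCm38.p6, chr11:69666121-69666420, minus strand): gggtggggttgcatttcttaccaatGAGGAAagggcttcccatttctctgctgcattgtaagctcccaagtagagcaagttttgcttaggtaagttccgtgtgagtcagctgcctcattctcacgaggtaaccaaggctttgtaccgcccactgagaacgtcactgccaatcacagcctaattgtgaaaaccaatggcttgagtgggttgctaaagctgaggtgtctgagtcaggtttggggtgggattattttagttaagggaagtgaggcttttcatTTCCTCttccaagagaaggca
Lyz2 (GRCm38.p6, chr10:117282223-117282522, minus strand): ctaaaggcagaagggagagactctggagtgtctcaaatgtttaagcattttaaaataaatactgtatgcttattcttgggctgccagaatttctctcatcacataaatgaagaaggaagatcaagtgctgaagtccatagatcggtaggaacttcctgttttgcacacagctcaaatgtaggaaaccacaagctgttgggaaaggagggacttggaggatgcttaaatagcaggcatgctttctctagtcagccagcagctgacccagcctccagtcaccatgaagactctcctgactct
Lilr4b (GRCm38.p6, chr10:51480362-51480661, plus strand): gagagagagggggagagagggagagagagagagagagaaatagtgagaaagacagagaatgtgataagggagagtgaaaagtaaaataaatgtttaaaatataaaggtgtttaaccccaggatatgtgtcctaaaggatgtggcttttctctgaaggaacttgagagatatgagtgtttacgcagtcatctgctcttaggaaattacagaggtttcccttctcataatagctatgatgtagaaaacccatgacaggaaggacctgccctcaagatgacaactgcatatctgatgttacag
Laptm5 (GRCm38.p6, chr4:130913066-130913365, plus strand): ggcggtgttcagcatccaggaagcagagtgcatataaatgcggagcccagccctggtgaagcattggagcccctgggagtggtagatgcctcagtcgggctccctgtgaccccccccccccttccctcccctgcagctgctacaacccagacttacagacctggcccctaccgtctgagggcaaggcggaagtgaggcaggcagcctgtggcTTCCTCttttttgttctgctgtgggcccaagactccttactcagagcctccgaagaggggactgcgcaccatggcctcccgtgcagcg
Cd68 held 2 matches of GAGGAA, at -225 and 30 relative to the start, and Laptm5 1 at -38. The windows of Lyz2 and Lilr4b did not hold GAGGAA, but held the shorter GGAA 5 and 4 times over both strands. A match is a description of the sequence, not of binding.

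The tested members did not share a single course. Over the 15 wild-type arrays, log2 signals of Cd68 correlated with those of Lilr4b at r = 0.81, Tyrobp at 0.72 and Lyz2 at 0.58, and Lilr4b with Tyrobp at 0.76. Over the 12 mutant arrays outside 2 h, Cd68 correlated at r = 0.56 with Lyz2, 0.49 with Tyrobp and -0.24 with Lilr4b, and Lilr4b at -0.36 with Tyrobp. Lyz2 correlated with Tyrobp at r = 0.74 over the wild-type and -0.06 over the mutant arrays, and with the dimmer Laptm5 probe set at 0.82 and 0.51. These are descriptions over arrays that share their time groups. The 2 Laptm5 probe sets correlated at r = -0.13 over the 27 arrays, at 0.39 within wild type and at 0.50 within the mutant.

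The genes whose log2 signals were most like each member over the 27 arrays were taken by the highest Pearson r. For Lilr4b they were Saa3 (r = 0.92), an acute phase protein, Ifitm3 (0.89), an interferon-induced membrane protein, and Cd47 (0.89), a ligand of the myeloid receptor Sirpa. Saa3 had the largest 48 h change of these 3 genes, 4.82 (log2; limma, adjusted p = 3.51e-09) in wild type and 0.39 (adjusted p = 0.541) in the mutant. For Lyz2 they were Tmem176a (0.91), Mgat3 (0.88) and Sdc1 (0.88), and for Tyrobp Pgk1 (0.79), Cmtm7 (0.78) and Cd53 (0.77).

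For Cd68 they were Plp2 (r = 0.85), the cholesterol exporter Abca1 (0.84) and Lpgat1 (0.84). Abca1 changed at 48 h by 0.96 (log2; limma, adjusted p = 0.0142) in wild type and 1.07 (adjusted p = 0.0115) in the mutant on the probe set that was most alike, calls lost without wild-type 0 h replicate 2 or 48 h replicate 1 (limma adjusted p of 0.0653 to 0.117) and mutant 48 h replicate 3 (0.0710). Its second tested probe set changed by 0.84 and 1.03 (limma adjusted p of 4.86e-05 and 8.24e-06), and no call was lost with any 1 array left out. For Csf1r the highest values were lower, with Gpx3 at 0.67, Selplg at 0.65 and Arfgap3 at 0.64. The dimmer Laptm5 probe set was most like Cyba (0.83), Npepl1 (0.82) and Gnai2 (0.82), and the brighter one Rsl24d1 (0.87), Ibtk (0.83) and Pla2g1b (0.82). These genes depended on the arrays used: 0 to 2 of the 3 genes of a member were also among its 3 most alike over all 30 arrays or over the 9 group means, and for Csf1r 0 of 3 in both.

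Other markers of macrophages moved with the members in part. Of 22 listed genes 11 were tested, and 3 were higher at 48 h in each genotype, with a median log2 change of 0.53 in wild type and 0.18 in the mutant (-0.02 and 0.02 over all tested). At 48 h 7.88% of all probe sets were higher and 7.08% lower in wild type, and 4.49% and 4.98% in the mutant, against which these and the following list counts are to be read. In wild type these were Mpeg1 (0.75 ± 0.18, log2 ± SE), a pore-forming protein of macrophages, the protease Ctss (0.53 ± 0.13) and the lectin Lgals3 (1.14 ± 0.29), with limma adjusted p of 0.00672, 0.00883 and 0.00982. In the mutant they were the complement genes C1qc (0.99 ± 0.19) and C1qb (0.76 ± 0.23) and again Ctss (0.49 ± 0.13), with limma adjusted p of 0.00231, 0.0381 and 0.0217. The change of Lgals3 differed between genotypes, by -1.55 ± 0.42 (limma, adjusted p = 0.0417). In the fit without the SR-A mutant 2 h arrays 4 passed in each genotype, with C1qb as the fourth in wild type (0.67 ± 0.23, limma adjusted p = 0.0445, against 0.0516 with them) and C1qa in the mutant (0.57 ± 0.19, adjusted p = 0.0488, against 0.57 ± 0.53 and 0.568). Defining marker Mrc1, the mannose receptor, stood at 0.00 ± 0.24 in wild type and -0.19 ± 0.24 in the mutant. Leaving out wild-type 48 h replicate 1 ended the calls of Mpeg1 (0.60, limma adjusted p = 0.0619), Ctss (0.42, 0.0759) and Lgals3 (1.03, 0.0560); those of Ctss and Lgals3 also ended without 48 h replicate 2 (0.42, 0.0621) and 0 h replicate 2 (0.91, 0.0706). In the mutant, C1qb lost its call without any of 5 of 6 arrays (adjusted p = 0.0611 to 0.129) and Ctss without any of 3 (0.0710 to 0.0823). The difference of Lgals3 was lost without any of 8 of 12 arrays (-1.65 to -1.32, adjusted p = 0.0581 to 0.123).

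Of the CSF1 receptor axis and myeloid regulators, 5 of 12 genes were tested. Spi1 (PU.1) was higher at 48 h in wild type by 0.85 ± 0.21 (log2, SE; limma, adjusted p = 0.00821; 0.71, adjusted p = 0.0627 without 48 h replicate 1) and stood at 0.03 ± 0.21 (adjusted p = 0.944) in the mutant. The ligand Csf1 did not pass in either genotype (0.33 ± 0.19 and 0.17 ± 0.19). Csf3r, the receptor for the granulocyte growth factor, stood at -0.63 ± 0.23 in wild type (limma, adjusted p = 0.0631) and passed as lower without the SR-A mutant 2 h arrays (-0.63 ± 0.20, adjusted p = 0.0318). Of the signalling partners of ITAM adaptors and Fc receptors, 3 of 20 were tested, and 2 were higher in wild type: the inhibitory Fc receptor Fcgr2b by 0.69 ± 0.17 (adjusted p = 0.00714) and the inhibitory receptor Sirpa by 0.58 ± 0.13 (limma, adjusted p = 0.00454). In the mutant Sirpa was higher by 0.43 ± 0.13 (limma, adjusted p = 0.0455), a call lost when any of its 6 arrays was left out (adjusted p = 0.0525 to 0.151). A dimmer Sirpa probe set changed by 1.20 ± 0.38 in wild type (limma, adjusted p = 0.0357) and 0.44 ± 0.38 (adjusted p = 0.526) in the mutant. The Fcgr2b call ended without wild-type 0 h replicate 2 (0.56, limma adjusted p = 0.0543) or 48 h replicate 1 (0.58, 0.0584). Syk, the kinase that binds phosphorylated ITAMs, stood at -0.16 ± 0.23 and 0.05 ± 0.23. Of the phagocyte oxidase 1 of 5 genes was tested, Cyba, at 0.49 ± 0.21 (adjusted p = 0.117) and 0.24 ± 0.21 (adjusted p = 0.517) on its brighter probe set and 0.41 (limma, adjusted p = 0.0470) and 0.03 (adjusted p = 0.934) on the dimmer one.

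Markers shared by all leukocytes moved with the members in wild type, where 5 of 7 tested genes were higher at 48 h (median 0.71; 7.88% of all probe sets), and in the mutant 1 of 7 (median 0.11; 4.49% of all). Examples in wild type were the tetraspanin Cd53 (1.54 ± 0.20, log2 ± SE; limma, adjusted p = 9.51e-06), the actin-binding Lsp1 (0.81 ± 0.20, adjusted p = 0.00833) and Arhgdib (0.49 ± 0.13, adjusted p = 0.0115), and the other 2 were Cd52 (0.91) and Coro1a (0.71). In the mutant it was the actin bundler Lcp1 (0.40 ± 0.10, limma adjusted p = 0.0127), and 2 of 7 passed in the fit without the SR-A mutant 2 h arrays, with Arhgdib as the other (0.37 ± 0.12, adjusted p = 0.0483). At 0 h 4 of these 7 genes were higher in the mutant, where 7.62% of all probe sets were higher and 10.7% lower. Among the 4, Cd53 was higher by 0.84 ± 0.20 (limma, adjusted p = 0.00591) and Lsp1 by 1.05 ± 0.20 (adjusted p = 0.00160). Rac2 had the opposite sign and did not pass (-0.52 ± 0.25, limma adjusted p = 0.150). The 48 h changes of Cd53 and Lsp1 differed between genotypes (-1.64 ± 0.28, limma adjusted p = 0.00195, and -1.27 ± 0.29, adjusted p = 0.0166). These Lsp1 values came from its brighter probe set. The dimmer one stood at 0.30 ± 0.31 (log2, SE; limma, adjusted p = 0.558) in wild type and -0.60 ± 0.31 (adjusted p = 0.226) in the mutant at 48 h, its genotype difference at 0 h was 0.68 ± 0.31 (adjusted p = 0.123), and its difference of changes -0.90 ± 0.43 (adjusted p = 0.289). The summed signal of 12 leukocyte genes ran from 10818 to 12431 at 0 h and 15688 to 17275 at 48 h in wild type, and from 13996 to 14746 and 15460 to 20312 in the mutant. Leaving out 1 array ended the call of Arhgdib (wild-type 48 h replicate 1; 0.42, limma adjusted p = 0.0701), of Lcp1 (mutant 48 h replicate 2; 0.32, 0.0752), of the difference of Lsp1 (mutant 0 h replicate 3; -1.16, 0.0609), of Coro1a (wild-type 48 h replicate 3; 0.0595) and, for any of 4 of 6 arrays, of Cd52 (0.0610 to 0.138).

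Neutrophils also make Lyz2 and carry Tyrobp, Fcer1g and Fcgr3. Of their 8 tested markers 4 were higher and 1 lower at 48 h in wild type (7.88% and 7.08% of all probe sets), with a median of 0.91. S100a8 changed by 2.09 ± 0.36 (log2, SE; limma, adjusted p = 3.01e-04), S100a9 by 2.01 ± 0.38 (adjusted p = 7.52e-04) and the siderophore binder Lcn2 by 3.03 ± 0.28 (adjusted p = 7.84e-08), the fourth being the chitinase-like Chil3 (1.46, adjusted p = 0.0381), while the granule protein gene Camp was the 1 that fell (-1.85 ± 0.49, adjusted p = 0.0124) and the defining marker Ltf stood at 0.36 ± 0.21 (adjusted p = 0.276). In the mutant 1 of 8 was higher, Lcn2 (3.96 ± 0.28; limma, adjusted p = 8.49e-10), and S100a8 (-0.08 ± 0.36) and S100a9 (-0.10 ± 0.38) did not pass. These Lcn2 values came from its brighter probe set, while the other, with a mean signal of 507, stood at 0.43 ± 0.18 in wild type (limma, adjusted p = 0.112) and 0.50 ± 0.18 in the mutant (adjusted p = 0.0847). The changes of S100a8 and S100a9 were smaller in the mutant (-2.17 ± 0.51, limma adjusted p = 0.0215, and -2.10 ± 0.53, 0.0318), differences lost without any of 4 (-2.10 to -1.79, 0.0519 to 0.0645) and any of 6 (-2.15 to -1.62, 0.0510 to 0.0981) of 12 arrays. The calls of Camp and Chil3 were lost without any of 2 (limma adjusted p of 0.0599 to 0.105) and any of 5 (0.0649 to 0.144) of 6 arrays. The summed signal of 12 neutrophil genes ran from 46150 to 52740 at 0 h and 90507 to 123268 at 48 h in wild type, and from 41880 to 46514 and 65718 to 89182 in the mutant. Ltf and Lcn2 made up a large part of these sums. In wild type the mean sum was 48501 at 0 h and 108459 at 48 h, with mean Ltf 29818 and 37741 and mean Lcn2 4856 and 39290. In the mutant the mean sum was 44104 and 78597, mean Ltf 27170 and 39300, and mean Lcn2 1670 and 25914. No defining neutrophil marker was at the floor, the epithelium itself can express several of these genes, and their part in the change of Lyz2, Tyrobp and Lilr4b was not tested.

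**Figure D4:**
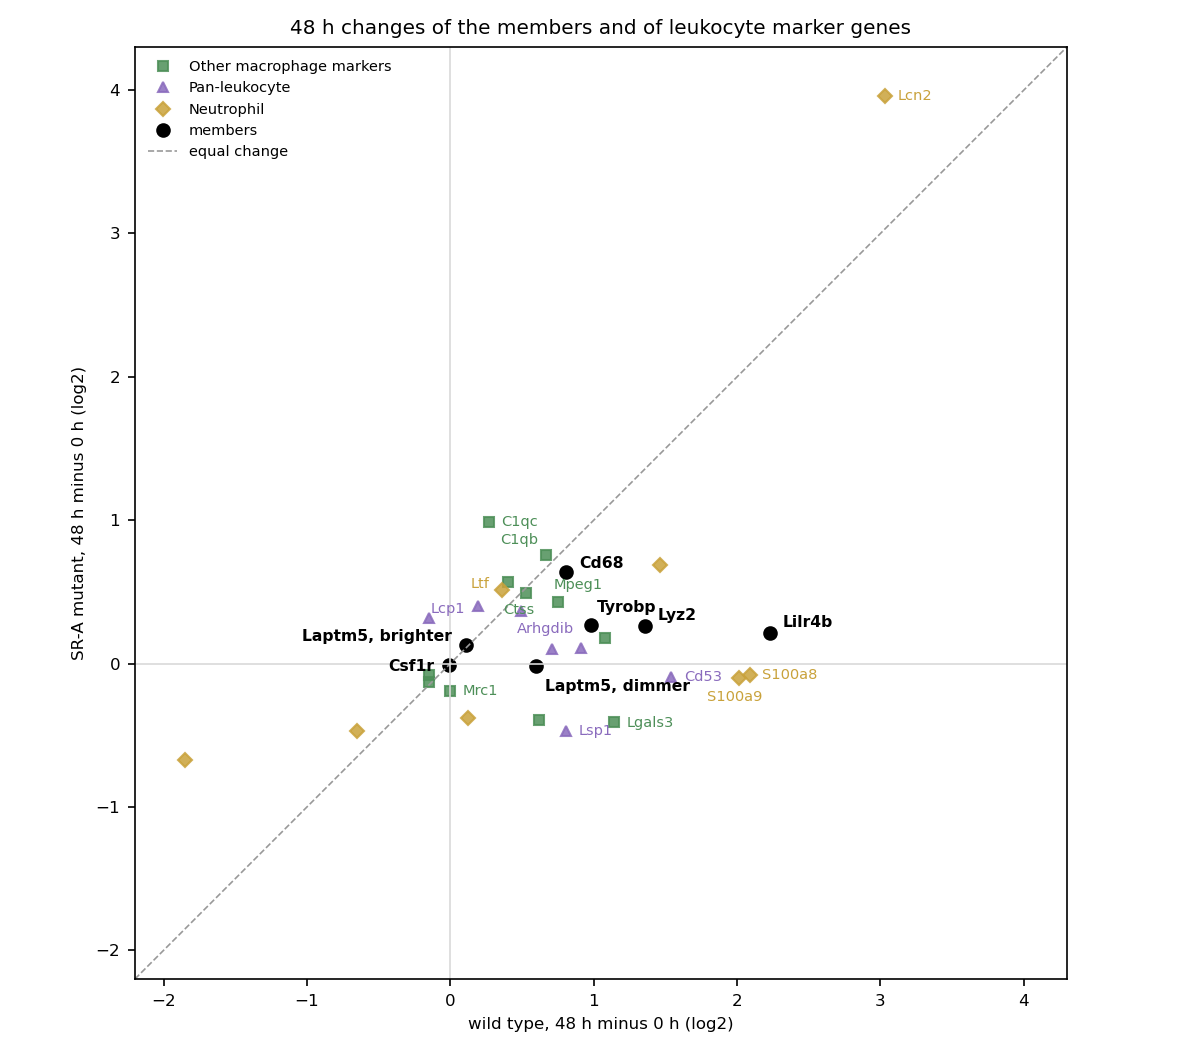
Log2 change from 0 to 48 h in wild type (x axis) against that in the SR-A mutant (y axis) for the 7 tested member probe sets (black) and the tested genes of the lists of macrophage, leukocyte and neutrophil markers; the dashed line marks equal change. Lilr4b (2.23 and 0.21) lies with Cd53, S100a8 and S100a9 to the right near 0 on the y axis, whereas Cd68 (0.81 and 0.64) lies near the line.

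Markers of other cell types that carry some of the members gave these counts at 48 h. Of the osteoclast list 2 of 7 genes were tested: Acp5 was lower in both genotypes (-0.98 ± 0.28, log2 ± SE, limma adjusted p = 0.0190, and -0.88 ± 0.28, 0.0474) and Ctsk in the mutant (-0.78 ± 0.22, limma adjusted p = 0.0295; -0.51 ± 0.22, 0.134, in wild type). Of the mast cell list 2 of 9 were tested and Kit, which other cells also express, was lower in wild type (-0.48 ± 0.13, limma adjusted p = 0.0168) and stood at 0.23 ± 0.13 (0.291) in the mutant, a difference of 0.71 ± 0.19 (0.0405). Of the dendritic cell list 3 of 6 were tested and Cd83 was lower in both (-0.54 ± 0.18, limma adjusted p = 0.0494, and -0.58 ± 0.18, 0.0480). None of 12 T and NK cell genes was tested, and 0 of 2 tested B and plasma cell genes and 0 of 2 platelet and red cell genes passed against 0 h at 48 h. Of all probe sets 7.08% were lower in wild type and 4.98% in the mutant. Calls in this paragraph were lost when single arrays were left out: Acp5 for any of 3 of 6 arrays in wild type (limma adjusted p = 0.0814 to 0.106) and any of 6 in the mutant (0.0851 to 0.124), and Ctsk for any of 6 (0.0582 to 0.0861). The Kit call was lost for any of 3 of 6 (0.0552 to 0.0711) and its difference for any of 9 of 12 (0.0537 to 0.107), and Cd83 for any of 5 of 6 in wild type (0.0687 to 0.278) and any of 6 in the mutant (0.0555 to 0.146).

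Between the genotypes, 1 of 2 tested B and plasma cell genes differed at 0 and 48 h. Of 2 tested platelet and red cell genes, 1 differed at 48 h. Over all tested probe sets, 18.3% differed at 0 h and 16.3% at 48 h. Jchain, the joining chain of IgA and IgM made by plasma cells, read 313, 208 and 181 at 0 h and 173, 159 and 178 at 48 h on wild-type arrays, and 2381, 1391 and 1379 against 1554, 1398 and 1089 on mutant arrays. The mutant arrays lay above all wild-type arrays at both times. They also did at 8 h (1096, 1944 and 1231 against 811, 881 and 402). At 0, 8 and 48 h, 17.8%, 12.7% and 14.4% of all tested probe sets had the mutant arrays higher without overlap. The genotypes overlapped for Jchain at 2 h, with 1964, 516 and 1811 on mutant and 786, 784 and 1070 on wild-type arrays. They also overlapped at 16 h, where the mutant arrays read 1002, 708 and 1800. SR-A mutant minus wild type was 2.87 ± 0.49 at 0 h and 2.97 ± 0.49 at 48 h (log2, SE; limma adjusted p of 7.21e-04 and 2.35e-04), and neither call was lost with 1 array left out. On wild-type arrays Jchain read 1073, 443 and 2404 at 16 h, a change from 0 h of 2.20 ± 0.49 (limma, adjusted p = 0.0102; 0.0718 without 16 h replicate 3). Ms4a1, the other B and plasma cell gene tested, had genotype differences of -0.51 ± 0.22 at 0 h and 0.00 ± 0.22 at 48 h (limma adjusted p of 0.105 and 0.995). The hemoglobin gene Hba-a1 was higher in the mutant at 48 h by 0.55 ± 0.18 (limma, adjusted p = 0.0421), a call lost without any of 4 of 6 arrays (0.129 to 0.195). At 0 h its difference was 0.33 ± 0.18 (limma, adjusted p = 0.207). Alas2, the other red cell gene tested, did not pass at 48 h (0.89 ± 0.40, limma adjusted p = 0.132). The part of plasma cells and blood in the Lyz2 values was not tested.

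The epithelium's own genes moved the other way in part: of 6 tested genes 3 were lower and 1 higher at 48 h in wild type, and 1 lower in the mutant. In the fit without the SR-A mutant 2 h arrays 4 were lower in wild type and 3 in the mutant. Adcy3, the olfactory adenylyl cyclase, changed by -1.06 ± 0.16 (log2, SE; limma, adjusted p = 7.48e-05) and -0.80 ± 0.16 (adjusted p = 0.00255), and the olfactory channel Cnga2 by -0.81 ± 0.16 (adjusted p = 9.65e-04) in wild type, with -0.49 ± 0.16 (adjusted p = 0.0503) in the mutant, which was 0.0364 without the SR-A mutant 2 h arrays. The other gene that was lower in wild type was the adhesion molecule Ncam1 (-0.41, limma adjusted p = 0.0235; lost without any of 3 of 6 arrays, 0.0987 to 0.153). Omp had a mean signal of 29569 ± 2280 (SD, n = 3) at 0 h and 17240 ± 842 at 48 h in wild type, and of 35032 ± 1988 and 23270 ± 3800 in the mutant, with no overlap between the times in either genotype. These times did not overlap, in either direction, for 37.6% of all tested probe sets in wild type and 26.4% in the mutant. The log2 changes of Omp, -0.78 ± 0.86 and -0.60 ± 0.86, did not pass with all 30 arrays (limma adjusted p of 0.602 and 0.738), where the SR-A mutant 2 h arrays enter the standard error. Without those arrays they were -0.78 ± 0.11 and -0.60 ± 0.11 (limma adjusted p of 3.91e-05 and 9.92e-04). Krt18, a keratin of the supporting cells, was the gene that was higher in wild type (0.41 ± 0.11, limma adjusted p = 0.0134; lost without 0 h replicate 2, 0.37, 0.0560, or 48 h replicate 1, 0.33, 0.0928). The share of these shifts in the members' values was not tested.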

How the data were processed

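Total RNA of olfactory epithelium was measured on 30 arrays, 3 in each of 10 genotype-by-time groups taken from the labels. Their number limits the precision. The deposited values are intensities (linear signals of the MAS5 algorithm, per the submitters' processing notes) in 1 table of 12488 probe sets, 66 of them controls. Genes came from the platform annotation: of 12422 other probe sets, 10833 had 1 gene.

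Signals under 113.7, the pooled 25th percentile, were set to it, log2 was taken, and the 6968 probe sets above the pooled median of 572 on at least 3 arrays were fitted with limma 3.58.1 (R 4.3.3), with 10 group means over all 30 arrays, two-sided, with Benjamini-Hochberg adjustment over all tested probe sets and a threshold of 0.05. The fit was tested on simulated data. Of simulated 2-fold changes it found 87% for 48 h against 0 h in wild type. For a genotype difference in the 48 h change it found 59%, so a missed threshold there does not show equal changes.

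The members and lists were chosen with earlier results of these data known. Named genes were all members, up to 3 genes of each list with the smallest p at 48 h in each genotype, the defining markers, and the 3 genes most like each member. Camp, Chil3, Cd52, Coro1a, Rac2, Ncam1, C1qa, Csf1, Csf3r, Syk, Cyba, Jchain, Ms4a1, Hba-a1, Alas2 and second probe sets lie outside this rule and were named after their values were seen. A gene of several tested probe sets was counted in a list by its brightest. Alternatives were no filter, log2(signal + 16), quantile normalization, replicate numbers blocked, robust moderation with a variance trend, fits without some arrays, and fits of only the groups compared. Protein sequences were not used here. Same-numbered arrays did not deviate together (median r = -0.01).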

Additional observations from a re-analysis of the deposited data

Results flagged for a closer look

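The test of the difference in time course between genotypes passed for Lilr4b (limma, adjusted p = 2.43e-06) and Lyz2 (adjusted p = 0.0291). The log2 change from 0 h in the SR-A mutant minus that in wild type passed for Lilr4b at 48 h (-2.02) and at 2 h (1.12), and for the brighter Laptm5 probe set at 2 h (0.55). Both 2 h values rest on the SR-A mutant 2 h arrays, whose Gapdh controls stood apart, and their part was not tested. Among listed markers the difference of the 48 h changes passed for Lgals3 (-1.55), Cd53 (-1.64), Lsp1 (-1.27), S100a8 (-2.17), S100a9 (-2.10) and Kit (0.71).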

How the results depend on the processing

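Counts are of the 7 tested member probe sets past the threshold. In wild type, 48 h against 0 h had 4 in each leave-one-out fit and 5, with the dimmer Laptm5 probe set, under quantile normalization (limma adjusted p = 0.0391), in a fit of only the groups compared (0.0172), and without the SR-A mutant 2 h arrays or with replicate 2 alone kept (0.00371), 2 h and 8 h kept 0, and 16 h had 2 (1 to 2 leaving out 1 array; 1 in a fit of only the groups compared). From 8 to 16 h 1 passed (0 to 1 leaving out 1 array; 0 with no filter and in the fit of only these groups; 2 without the SR-A mutant 2 h arrays or with replicate 2 alone kept), and from 16 to 48 h 2 (2 to 2; 0 in the fit of only these groups). In the mutant, 2 h against 0 h had 2 (1 to 3; 1 with no filter; 0 with only replicate 2 and in the fit of only the groups), 8 h against 0 h 0 (1 in that fit), 48 h against 0 h 1 (0 to 1), 2 to 8 h 2 (1 to 2; 1 with only replicate 2; 0 in the fit of only the groups) and 16 to 48 h 0 (0 to 2; 1 under quantile normalization, the variance trend, without the 2 h arrays and with only replicate 2). Between genotypes, 0 h had 3 (1 to 2, and 5 without the 2 h arrays), 2 h 1 (1 to 2) and 48 h 2 (2 to 3). At 8 h 0 passed (0 to 1, with 1 under the variance trend and 2 without the 2 h arrays), and over all times 3 (2 to 5). At 0 h Lyz2 was also lost with no filter (limma adjusted p = 0.0571) and Lilr4b under quantile normalization (0.0716). Over all times Lyz2 was lost with no filter (limma adjusted p = 0.0698) and under quantile normalization (0.0717). Quantile normalization added Tyrobp and the dimmer Laptm5 probe set at 0 h and over all times. The block added Tyrobp in both, and the variance trend at 0 h only. The difference of changes at 2 h had 2 (1 to 2; 1 with only replicate 2), and the time course 2 (1 to 4; 1 with no filter). Some settings had fewer arrays or more probe sets tested, whereas quantile normalization, the block and the variance trend kept both. The cause of the changed counts was not tested. The share of all probe sets past the threshold also moved in the fit of only the groups compared. In the mutant it was 0.445% at 2 h against 0 h (17.7% in the main fit) and 4.78% from 2 to 8 h (25.2%). In wild type it was 0.0718% from 8 to 16 h (1.23%) and 0.689% from 16 to 48 h (3.65%). At 16 h against 0 h in wild type it was 10.6% (6.53%). The genotype difference changed sign for Csf1r, 0.11 over 5 times and -0.03 over the 4 other than 2 h, and for the dimmer Laptm5 probe set at 2 h, 0.10 but 0.00 without wild-type replicate 1, -0.16 without mutant replicate 2, -0.11 without replicate 3 and 0.57 without replicate 1. Of 125 pairs of probe set and contrast called under no setting, 47 changed sign in some setting.

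With the replicate number as a block, Lilr4b changed by 2.23 ± 0.20 at 48 h in wild type (limma, adjusted p = 2.68e-07). The block ended the mutant 48 h calls of Sirpa (limma adjusted p = 0.0510) and Acp5 (0.0564) and the 48 h differences of change of Lgals3 (0.0529) and Kit (0.0541). The numbers do not pair the arrays: 9 of 30 arrays correlated best with their own number. With no filter the 48 h calls of Cd83 (limma adjusted p = 0.0829 in wild type, 0.0816 in the mutant) were lost. So were the mutant calls of C1qb (0.0720), Sirpa (0.0637), Acp5 (0.0917) and Ctsk (0.0583), and the differences of Lgals3 (0.0791), S100a9 (0.0669) and Kit (0.0562). The fit of only the groups compared ended the wild-type calls of Mpeg1 (0.0599), Ctss (0.101), Acp5 (0.0586) and Cd83 (0.103). It also ended the mutant calls of Ctss (0.0740), Lcp1 (0.168), Sirpa (0.124) and Cd83 (0.0637). Dim signals limit Fcer1g and Fcgr3. The settings over 4 times, and over 3 differences without the SR-A mutant 2 h arrays, were chosen after seeing the data.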
